A study of Arabidopsis thaliana with 12 samples.

Results

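The genes described here encode proteins of the small (40S) subunit of the cytosolic ribosome in Arabidopsis thaliana. They are 60 of the 37242 genes in the deposited tables, chosen by a fixed list of locus names that covers RPSA and paralogs of proteins between RPS2 and RPS28. The list holds 24 proteins, of which 23 have at least 2 genes in it, 11 of them exactly 2 genes and 11 exactly 3. All 60 were found in the tables, and all 60 passed the filter on low counts. Poly(A) RNA of young leaves was read out in 12 libraries, 3 per group in 4 groups, and each library came from a pool of 15 plants. The groups were the mutant npf8.4-1 after 2 days on medium without nitrogen (day 2), npf8.4-1 at day 0, the wild-type accession Col-0 at day 2, and Col-0 at day 0. Before that, every plant had spent 15 days in hydroponic culture with 5 mM KNO3, and the day 0 plants were harvested at its end. Day 2 plants were also 2 days older, and plants of that age kept on nitrate were not analysed here, so depletion and age cannot be told apart. npf8.4-1 is 1 mutant allele, and no complemented line was analysed here.

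A 40S subunit consists of a ribosomal RNA and about a single copy of each of its proteins. It binds messenger RNA and the initiation factors, finds the start codon and decodes the message, while the large (60S) subunit joins amino acids. Arabidopsis encodes nearly every 40S protein in several paralogous genes, so each ribosome carries the product of 1 of them at each position. Making ribosomes takes a large part of a growing leaf's nitrogen and phosphorus. Plants tie the expression of ribosomal protein genes to growth, to cell division and to signalling by the kinase TOR (target of rapamycin).

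Exon reads per library numbered 28761674 to 34282716, and 19416 genes were tested. NPF8.4, the transporter gene mutated in npf8.4-1, was low in each mutant library, with 22 to 47 reads in npf8.4-1 and 342 to 568 reads in Col-0 at day 2, and 10 to 25 reads in npf8.4-1 and 174 to 250 reads in Col-0 at day 0. A principal component with 75.6% of the variance separated the days. Replicate 3 at day 2 of each genotype lay nearest to day 0 on it, and key counts below are also given without both. The 5 leaf mesophyll markers summed to between 43530 and 61550 TPM (the share of transcripts after scaling by gene length) in every library, and all 6 root markers were below 1 TPM in every library.

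Together the 60 genes stood 3.94 times below their day 0 level in npf8.4-1 and 3.48 times below it in Col-0 at day 2. Their summed level was 5798, 5962 and 8032 TPM in the npf8.4-1 day 2 libraries, against 23916, 27309 and 26791 TPM in npf8.4-1 at day 0. In Col-0 the sum was 5785, 7232 and 7440 TPM at day 2 and 22034, 23707 and 25466 TPM at day 0. No day 2 library came near a day 0 library of either genotype. As a share of all TPM, the genes made up 0.66% in npf8.4-1 and 0.682% in Col-0 at day 2, and 2.6% in npf8.4-1 and 2.37% in Col-0 at day 0. The group means were 6597 ± 1245 TPM in npf8.4-1 at day 2 and 26005 ± 1828 TPM in npf8.4-1 at day 0, and 6819 ± 901 TPM in Col-0 at day 2 and 23736 ± 1716 TPM in Col-0 at day 0 (SD, n = 3 each). In bulk leaf RNA, fewer cells rich in these transcripts and less transcript per cell cannot be told apart.

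**Figure D1:**
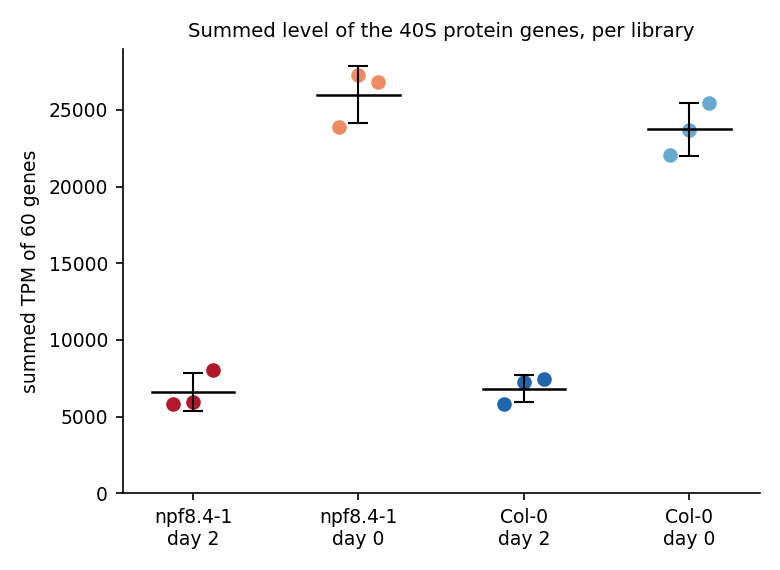
Summed TPM of the 60 genes (y axis) in each library, by group (x axis); points are libraries, horizontal lines are group means and bars are the SD of 3 libraries. The 6 day 2 libraries sit between 5785 and 8032 TPM and the 6 day 0 libraries between 22034 and 27309 TPM.

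Every one of the 60 genes fell on its own. In npf8.4-1 all 60 were lower at day 2 by edgeR's quasi-likelihood test at an adjusted p under 0.05, where 31.6% of the 19416 genes tested were lower, with a median log2 fold change of −2.07 against 0.03 over all genes tested. In Col-0 all 60 were lower as well, against 30.4% of the genes tested, with a median of −1.82 against 0.02 over all genes. All 3 day 2 libraries lay below all 3 day 0 libraries for 60 of 60 genes in npf8.4-1, where 34.4% of all genes did so, and for 60 of 60 in Col-0, where 33.3% did. The fall reached at least 4-fold for 37 of the 60 in npf8.4-1 and for 11 in Col-0, compared with 3.48% of all genes in npf8.4-1 and 2.23% in Col-0. Without replicate 3 of both day 2 groups, 59 genes were lower in npf8.4-1 with a median of −2.27, and 60 in Col-0 with a median of −1.98. Between the quartiles the members spanned −2.22 to −1.91 in npf8.4-1 and −1.97 to −1.70 in Col-0, so most of them moved by a similar amount.

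**Figure D2:**
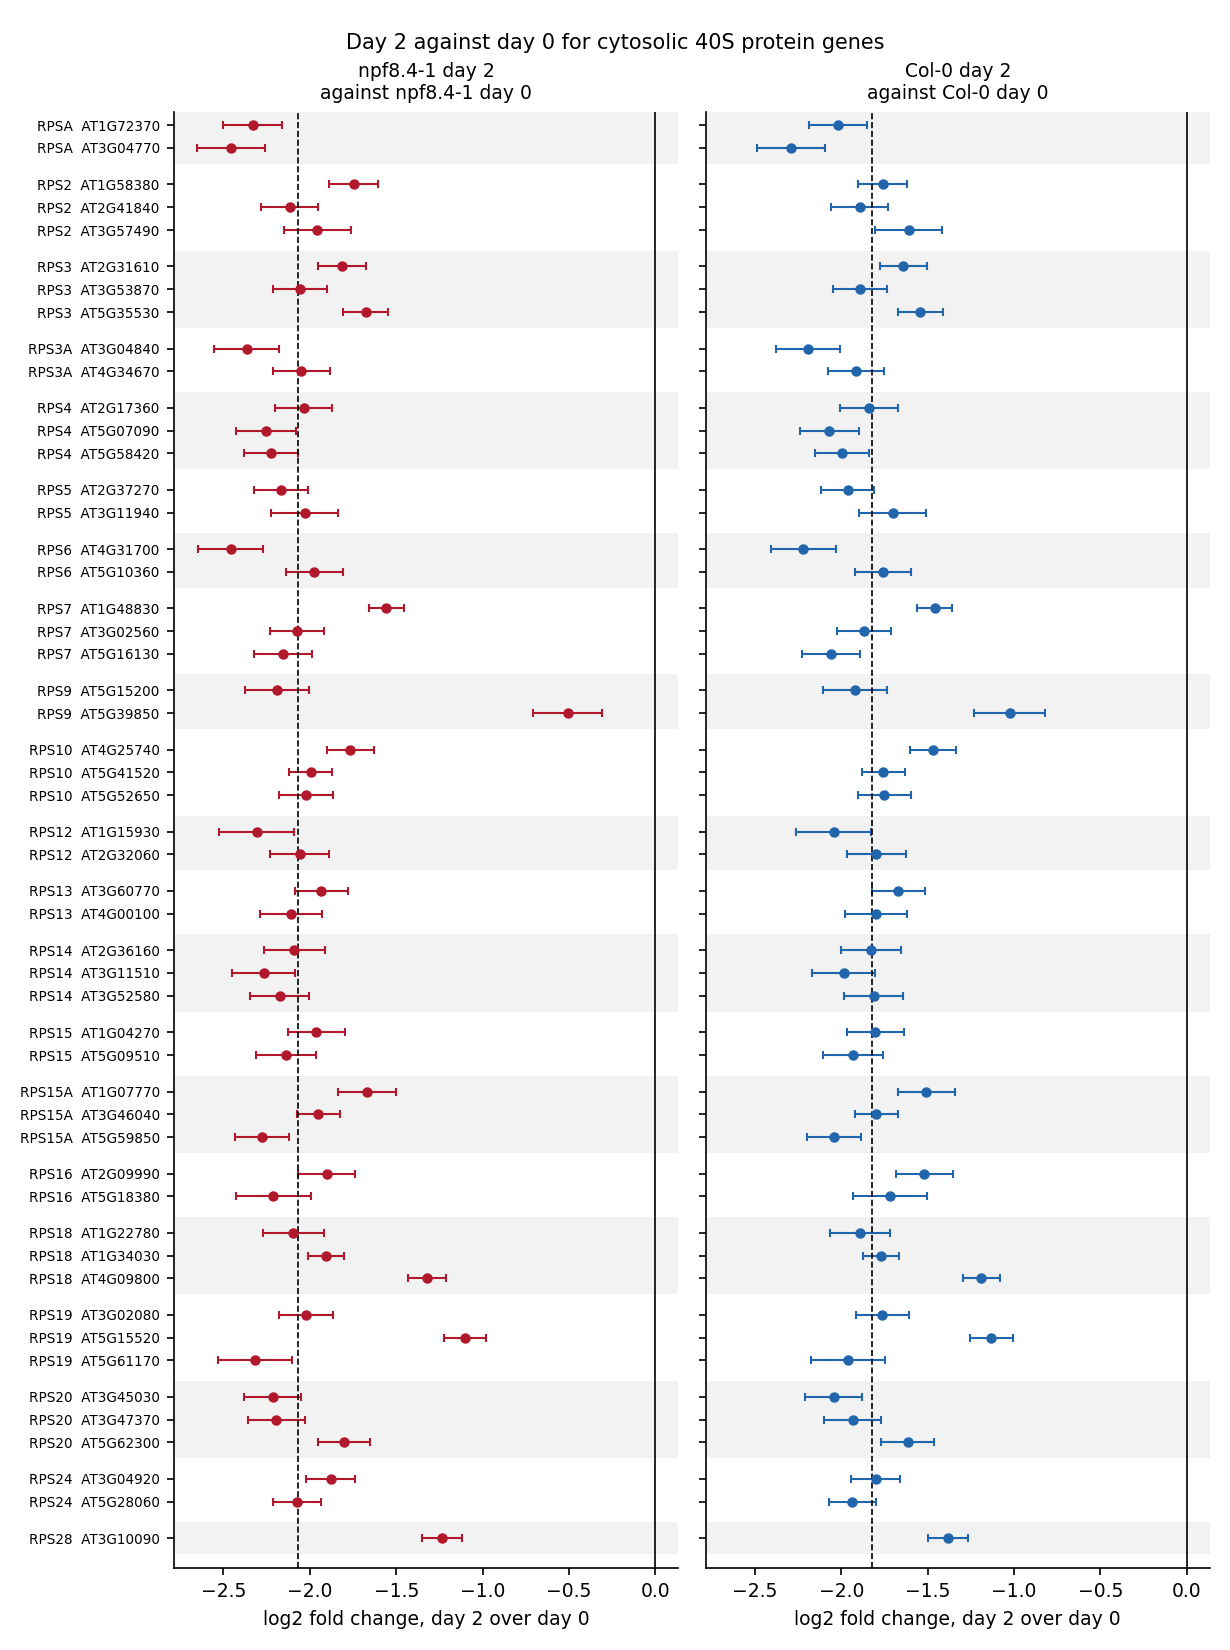
Log2 fold change of day 2 over day 0 (x axis) for 51 of the 60 genes (y axis, grouped by protein in alternating shades), in npf8.4-1 on the left and Col-0 on the right; points are edgeR estimates, bars are 1 SE and the dashed line is the median of the 60. All points drawn lie below 0, and AT5G39850 (RPS9), AT5G15520 (RPS19), AT4G09800 (RPS18) and AT3G10090 (RPS28) are among the 5 furthest to the right in both panels.

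The fall ran through all parts of the subunit. The head, which swivels during translocation and contacts the transfer RNAs, is represented by 28 genes of 11 proteins, with a median log2 fold change of −2.02 in npf8.4-1 (−2.44 to −1.10) and −1.76 in Col-0 (−2.17 to −1.13). The body and platform, with the decoding centre and the path of the messenger RNA, are represented by 32 genes of 13 proteins, with a median of −2.11 in npf8.4-1 (−2.46 to −0.51) and −1.90 in Col-0 (−2.29 to −1.02). Summed over its paralogs, a protein with 2 or more genes was 3.19 to 4.72 times lower at day 2 than at day 0 in npf8.4-1, and 2.93 to 4.07 times lower in Col-0. RPSA had the largest ratio in npf8.4-1 and RPS3A, a platform protein, the largest in Col-0. RPS18, in the head, had the smallest in both genotypes.

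Of the 5 genes with the highest level over the 12 libraries, 4 are described. AT3G04840, one of the RPS3A genes, also showed one of the 5 largest falls in Col-0. AT3G04840 had 206, 194 and 289.8 TPM in the npf8.4-1 day 2 libraries, against 1031, 1168 and 1130.2 TPM in npf8.4-1 at day 0. In Col-0, AT3G04840 had 179, 251 and 245 TPM at day 2 and 903, 997 and 1082 TPM at day 0. It fell, with a log2 fold change of −2.37 in npf8.4-1 (SE 0.19, edgeR adjusted p = 3.56e-07) and −2.19 in Col-0 (SE 0.18, edgeR adjusted p = 8.31e-07).

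RPSA transcript came almost wholly from AT1G72370 (P40), which held 98.1% of the summed TPM of the RPSA genes in npf8.4-1 and 98.2% in Col-0 at day 2. AT1G72370 had 171, 174 and 241 TPM in the npf8.4-1 day 2 libraries, against 836, 981 and 943 TPM in npf8.4-1 at day 0. In Col-0, AT1G72370 had 189, 202 and 238 TPM at day 2 and 765, 823 and 881 TPM at day 0. That is −2.33 in npf8.4-1 and −2.02 in Col-0 on the log2 scale. Its minor paralog AT3G04770 (RPSAb) had the largest fall of the 60 in Col-0. AT3G04770 had 3.55, 3.15 and 4.31 TPM in the npf8.4-1 day 2 libraries, against 17.6, 20.5 and 18.4 TPM in npf8.4-1 at day 0. In Col-0, AT3G04770 had 2.76, 4.98 and 3.93 TPM at day 2 and 15.9, 17.9 and 21.3 TPM at day 0. AT3G04770 fell, with a log2 fold change of −2.46 in npf8.4-1 (SE 0.20, edgeR adjusted p = 4.05e-07) and −2.29 in Col-0 (SE 0.20, edgeR adjusted p = 9.31e-07). It had 74 to 642 reads per library, and it overlaps AT3G04780 on the same strand over 132 bases (7.11% of the gene). AT3G04780 had group means of 23.2 to 26.17 TPM and a log2 fold change of −0.21 in npf8.4-1 and −0.15 in Col-0. AT1G04270 (RPS15), encoding a head protein that reaches the decoding site, was also among the 5 highest. AT1G04270 had 198, 194 and 269.6 TPM in the npf8.4-1 day 2 libraries, against 737, 847 and 830.1 TPM in npf8.4-1 at day 0. In Col-0, AT1G04270 had 178, 245 and 230.0 TPM at day 2 and 681, 724 and 797 TPM at day 0. Its log2 fold change was −1.96 in npf8.4-1 and −1.80 in Col-0, close to the median of the 60. Day 2 and day 0 libraries of each genotype did not overlap for AT1G72370, AT3G04770 or AT1G04270.

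Of the 10 largest falls in npf8.4-1, 7 were also among the 10 largest in Col-0. Across the 60 genes the log2 fold changes of the 2 genotypes, which come from separate libraries, had a Spearman's rho of 0.91 (n = 60 genes, which share the libraries of each genotype and are not independent). Higher mean TPM went only weakly with a larger fall, with a rho of −0.28 in npf8.4-1 and −0.29 in Col-0.

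**Figure D3:**
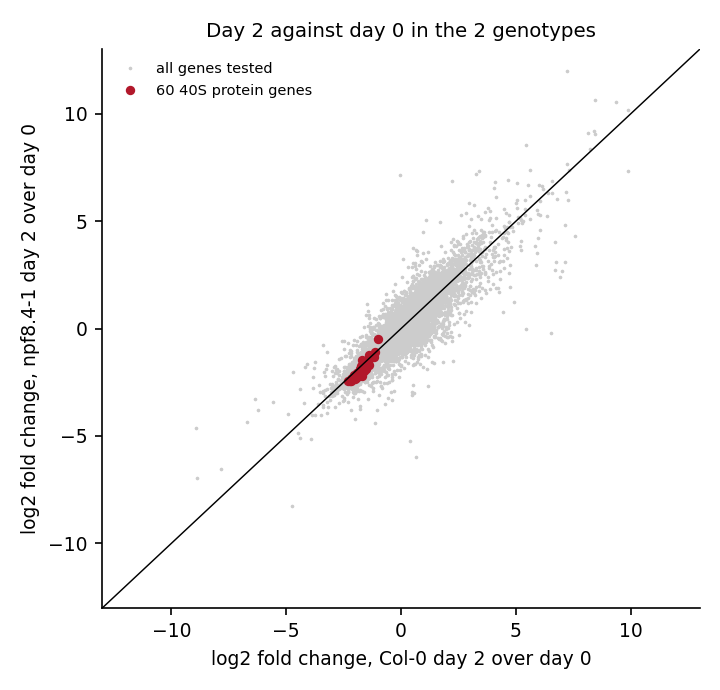
Log2 fold change of day 2 over day 0 in Col-0 (x axis) and npf8.4-1 (y axis); grey points are all 19416 genes tested, red points the 60 genes and the line marks equal change. The red points form a tight group in the lower left. Of the 60, 55 lie below the line, with a lower log2 fold change in npf8.4-1 than in Col-0, against 46.9% of all genes tested.

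A few genes fell much less than the rest, and 4 of the 5 smallest falls were shared by both genotypes. The smallest belonged to AT5G39850, which encodes RPS9, a protein of the body near the entry of the messenger RNA channel. AT5G39850 had 4.34, 3.96 and 3.48 TPM in the npf8.4-1 day 2 libraries, against 5.23, 5.27 and 5.21 TPM in npf8.4-1 at day 0. In Col-0, AT5G39850 had 2.74, 4.15 and 2.12 TPM at day 2 and 4.79, 6.36 and 6.40 TPM at day 0. In npf8.4-1 its groups did not overlap but lay close together. AT5G39850 fell, with a log2 fold change of −0.51 in npf8.4-1 (SE 0.20, edgeR adjusted p = 0.0405) and −1.02 in Col-0 (SE 0.20, edgeR adjusted p = 0.00085). It had only 40 to 139 reads per library, and its call in npf8.4-1 is the 1 call among the 60 that did not hold throughout. The adjusted p there was 0.101 with scaling by library totals alone, and 0.0841 without replicate 3 of both day 2 groups. Leaving out 1 npf8.4-1 day 0 library gave 0.0617, 0.118 and 0.0689 for replicates 1, 2 and 3, and leaving out npf8.4-1 day 2 replicate 2 or 3 gave 0.0873 or 0.116.

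Next came an RPS19 gene, AT5G15520, whose protein sits in the head. AT5G15520 had 10.5, 12.1 and 13.9 TPM in the npf8.4-1 day 2 libraries, against 24.0, 24.2 and 25.1 TPM in npf8.4-1 at day 0. In Col-0, AT5G15520 had 10.2, 12.3 and 11.8 TPM at day 2 and 22.4, 22.8 and 27.4 TPM at day 0. It fell, with a log2 fold change of −1.10 in npf8.4-1 (SE 0.12, edgeR adjusted p = 6.52e-06) and −1.13 in Col-0 (SE 0.12, edgeR adjusted p = 6.83e-06). AT5G15520 overlaps AT5G15530 on the opposite strand over 192 bases (11.1% of the gene), and AT5G15530 itself had a log2 fold change of −1.70 in npf8.4-1 and −1.37 in Col-0. The strand setting of the counting, not given in the sources used here, decides whether reads of both genes were kept apart. AT3G10090, the RPS28 gene of the list, was also well above the median of the 60. AT3G10090 had 36.1, 33.4 and 34.6 TPM in the npf8.4-1 day 2 libraries, against 78.1, 78.2 and 73.6 TPM in npf8.4-1 at day 0. In Col-0, AT3G10090 had 26.2, 34.5 and 31.4 TPM at day 2 and 68.2, 79.5 and 84.4 TPM at day 0. It fell, with a log2 fold change of −1.24 in npf8.4-1 (SE 0.12, edgeR adjusted p = 1.42e-06) and −1.38 in Col-0 (SE 0.12, edgeR adjusted p = 8.58e-07). RPS28 is a small protein of the head.

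Many paralogs of the same protein differed in how far they fell, but so did genes of different proteins. For each of the 50 pairs of paralogs within a protein, the log2 ratio of their reads was compared between the day 2 and day 0 libraries by a two-sided exact permutation test within genotypes, whose smallest possible p is 0.005. The ratio differed between days in 39 of 50 pairs after Benjamini-Hochberg adjustment over the 50 pairs. That is 78.0% of the pairs, against 64.3% of the 1720 pairs that can be formed from the 60 genes across proteins (1106 pairs, adjusted over those 1720). The smallest p was reached by 31 of the 50 pairs (62.0%), against 831 of the 1720 pairs across proteins (48.3%). The median size of the change was 0.26 log2 units within proteins and 0.24 across proteins, so such shifts were also common between genes of different proteins. Pairs that have a gene in common are not independent, and no test of the difference in share was made. The change had the same sign in both genotypes in 47 of 50 pairs, for which no count across proteins is given. Day 2 and day 0 ratios did not overlap for 36 pairs in npf8.4-1 (72.0%, against 63.6% across proteins) and 38 pairs in Col-0 (76.0%, against 57.1% across proteins). Without replicate 3 of both day 2 groups, 43 pairs passed. The shifts were mostly small beside the common fall, as the log2 fold changes of the paralogs of a protein spanned a median of 0.32 in npf8.4-1 and 0.28 in Col-0.

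Among pairs within a protein, the widest divergence was in RPS9. The 2 RPS9 genes in the list are AT5G15200 (chr5:4934810-4936429, minus strand) and AT5G39850 (chr5:15949910-15951475, plus strand), in TAIR10 coordinates, and their coding sequences are 80.4% identical. Their promoters, 250 bases up to the base before the annotated start (5′ to 3′, from the RefSeq TAIR10.1 assembly), are shown because the pair moved furthest apart. Capitals mark matches, on either strand, to the telo box AAACCCTA and to the site II motifs TGGGCC and TGGGCT, elements known from promoters of ribosomal protein genes and of genes active in dividing cells.
AT5G15200 (chr5:4936430-4936679, minus strand): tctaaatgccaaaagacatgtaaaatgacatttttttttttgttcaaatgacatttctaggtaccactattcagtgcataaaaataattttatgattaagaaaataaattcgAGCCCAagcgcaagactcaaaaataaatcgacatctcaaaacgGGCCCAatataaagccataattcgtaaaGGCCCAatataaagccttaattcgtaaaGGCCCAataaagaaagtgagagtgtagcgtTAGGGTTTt
AT5G39850 (chr5:15949660-15949909, plus strand): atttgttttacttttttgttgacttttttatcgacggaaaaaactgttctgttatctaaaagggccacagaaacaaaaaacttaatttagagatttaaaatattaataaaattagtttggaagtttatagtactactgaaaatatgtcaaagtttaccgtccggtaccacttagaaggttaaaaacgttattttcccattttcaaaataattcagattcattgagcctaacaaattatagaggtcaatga
The promoter of AT5G15200 held 1 telo box, 3 copies of TGGGCC and 1 of TGGGCT, and that of AT5G39850 held none of these motifs.

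AT5G15200 supplied nearly all RPS9 transcript. AT5G15200 had 148, 163 and 222 TPM in the npf8.4-1 day 2 libraries, against 669, 807 and 796 TPM in npf8.4-1 at day 0. In Col-0, AT5G15200 had 156, 199 and 217 TPM at day 2 and 658, 695 and 748 TPM at day 0. AT5G39850, whose values are given above, made up 2.25% ± 0.658 of the summed RPS9 TPM in npf8.4-1 at day 2 and 0.691% ± 0.0729 at day 0, and 1.58% ± 0.552 in Col-0 at day 2 and 0.826% ± 0.0941 at day 0 (SD, n = 3 each). AT5G15200 fell, with a log2 fold change of −2.19 in npf8.4-1 (SE 0.19, edgeR adjusted p = 6.69e-07) and −1.92 in Col-0 (SE 0.18, edgeR adjusted p = 2.34e-06). The log2 ratio of AT5G15200 to AT5G39850 changed by −1.69 in npf8.4-1 and −0.89 in Col-0 from day 0 to day 2, a mean change of −1.29 (exact permutation p = 0.005, adjusted p = 0.00807, 50 pairs).

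RPS19 showed the same kind of split, with 2 major genes and the minor AT5G15520. AT3G02080 had 127, 148 and 186 TPM in the npf8.4-1 day 2 libraries, against 537, 603 and 615 TPM in npf8.4-1 at day 0. In Col-0, AT3G02080 had 142, 169 and 181 TPM at day 2 and 513, 528 and 574 TPM at day 0. AT5G61170 had 58.5, 63.8 and 91.4 TPM in the npf8.4-1 day 2 libraries, against 282, 377 and 336 TPM in npf8.4-1 at day 0. In Col-0, AT5G61170 had 66.5, 71.5 and 93.3 TPM at day 2 and 268, 295 and 314 TPM at day 0. Neither major gene had any overlap between days, and the log2 fold changes were −2.02 in npf8.4-1 and −1.76 in Col-0 for AT3G02080 and −2.32 in npf8.4-1 and −1.96 in Col-0 for AT5G61170. AT5G15520 made up 5.17% ± 0.351 of the RPS19 TPM in npf8.4-1 at day 2 and 2.61% ± 0.219 at day 0, and 4.55% ± 0.403 in Col-0 at day 2 and 2.83% ± 0.148 at day 0 (SD, n = 3 each). The log2 ratio to AT5G15520 changed by −1.04 for AT5G61170 and by −0.78 for AT3G02080 (exact permutation p = 0.005 and adjusted p = 0.00807 for each, 50 pairs).

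Within RPS7 the lesser fall was that of AT1G48830. AT5G16130 had 121, 127 and 186 TPM in the npf8.4-1 day 2 libraries, against 574, 624 and 617 TPM in npf8.4-1 at day 0. In Col-0, AT5G16130 had 123, 162 and 151 TPM at day 2 and 547, 571 and 631 TPM at day 0. AT1G48830 had 83.3, 87.5 and 105 TPM in the npf8.4-1 day 2 libraries, against 255, 256 and 249 TPM in npf8.4-1 at day 0. In Col-0, AT1G48830 had 85.8, 98.0 and 89.2 TPM at day 2 and 236, 241 and 243 TPM at day 0. The day 0 levels of AT5G16130 exceeded those of AT1G48830 in all 6 day 0 libraries, and the gap narrowed at day 2. AT5G16130 changed by −2.16 in npf8.4-1 and −2.06 in Col-0 and AT1G48830 by −1.56 in npf8.4-1 and −1.46 in Col-0 on the log2 scale. Their log2 ratio changed by −0.61 (exact permutation p = 0.005, adjusted p = 0.00807, 50 pairs).

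In 3 proteins the paralog with the highest TPM was a different gene at day 2 than at day 0, in all 12 libraries, while 16 of the 23 proteins with paralogs had the same leading gene throughout and 4 were mixed. The first was RPS6, the 40S protein that S6 kinase phosphorylates downstream of TOR. AT5G10360 (EMB3010; chr5:3258404-3260254, minus strand) led at day 2 and AT4G31700 (RPS6; chr4:15345979-15347804, minus strand) at day 0. AT5G10360 was not picked by the naming rule and is given because of this order, after its values were seen. The 2 promoters are shown as above, with the same motifs in capitals.
AT4G31700 (chr4:15347805-15348054, minus strand): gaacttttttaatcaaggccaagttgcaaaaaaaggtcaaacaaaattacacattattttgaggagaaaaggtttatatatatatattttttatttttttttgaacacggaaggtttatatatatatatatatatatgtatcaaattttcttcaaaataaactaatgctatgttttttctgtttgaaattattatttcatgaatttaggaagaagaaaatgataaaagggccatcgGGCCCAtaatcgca
AT5G10360 (chr5:3260255-3260504, minus strand): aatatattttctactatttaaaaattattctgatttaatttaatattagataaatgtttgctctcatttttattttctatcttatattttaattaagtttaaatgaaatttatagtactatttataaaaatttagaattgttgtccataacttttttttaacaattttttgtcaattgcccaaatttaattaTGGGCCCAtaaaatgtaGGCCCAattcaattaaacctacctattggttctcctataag
The promoter of AT4G31700 held 1 copy of TGGGCC, 14 bases before the start, and that of AT5G10360 held 3, of which 2 lie on opposite strands and share letters.

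AT4G31700 had 154, 158 and 224 TPM in the npf8.4-1 day 2 libraries, against 827, 971 and 954 TPM in npf8.4-1 at day 0. In Col-0, AT4G31700 had 147, 188 and 205 TPM at day 2 and 726, 815 and 897 TPM at day 0. AT5G10360 had 183, 186 and 252 TPM in the npf8.4-1 day 2 libraries, against 693, 812 and 775 TPM in npf8.4-1 at day 0. In Col-0, AT5G10360 had 179.7, 224 and 237 TPM at day 2 and 647, 703 and 746 TPM at day 0. AT4G31700 held 46.2% ± 0.755 of the RPS6 TPM in npf8.4-1 at day 2 and 54.7% ± 0.44 at day 0, and 45.7% ± 0.683 in Col-0 at day 2 and 53.7% ± 0.865 at day 0 (SD, n = 3 each). AT4G31700 fell, with a log2 fold change of −2.46 in npf8.4-1 (SE 0.19, edgeR adjusted p = 3.2e-07) and −2.22 in Col-0 (SE 0.19, edgeR adjusted p = 8.74e-07), among the 5 largest falls in Col-0. AT5G10360 fell, with a log2 fold change of −1.97 in npf8.4-1 (SE 0.17, edgeR adjusted p = 5.65e-07) and −1.76 in Col-0 (SE 0.16, edgeR adjusted p = 1.78e-06). The log2 ratio of their reads changed by −0.49 in npf8.4-1 and −0.465 in Col-0, with no overlap between days (exact permutation p = 0.005, adjusted p = 0.00807, 50 pairs). The order of the 2 genes also turned round in reads, with a mean log2 ratio of −0.23 in npf8.4-1 and −0.26 in Col-0 at day 2, and 0.26 in npf8.4-1 and 0.20 in Col-0 at day 0.

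In RPS18, a head protein that contacts the transfer RNA and the large subunit, AT4G09800 (RPS18C) led at day 2 and AT1G22780 (PFL) at day 0. AT4G09800 had 125, 141 and 167 TPM in the npf8.4-1 day 2 libraries, against 342, 323 and 349 TPM in npf8.4-1 at day 0. In Col-0, AT4G09800 had 134, 162 and 142 TPM at day 2 and 316, 311 and 331 TPM at day 0. AT1G22780 had 90.9, 103 and 144 TPM in the npf8.4-1 day 2 libraries, against 417, 459 and 475 TPM in npf8.4-1 at day 0. In Col-0, AT1G22780 had 94.6, 119 and 126 TPM at day 2 and 387, 405 and 427 TPM at day 0. AT4G09800 held 41% ± 1.27 of the RPS18 TPM in npf8.4-1 and 41.1% ± 1.51 in Col-0 at day 2, against 30.0% ± 1.16 in npf8.4-1 and 30.7% ± 0.846 in Col-0 at day 0 (SD, n = 3 each). AT4G09800 fell, with a log2 fold change of −1.32 in npf8.4-1 (SE 0.11, edgeR adjusted p = 4.96e-07) and −1.19 in Col-0 (SE 0.11, edgeR adjusted p = 1.53e-06). AT1G34030 had 85.6, 91.5 and 111 TPM in the npf8.4-1 day 2 libraries, against 337, 336 and 339.7 TPM in npf8.4-1 at day 0. In Col-0, AT1G34030 had 90.4, 105 and 93.4 TPM at day 2 and 295, 317 and 335 TPM at day 0. AT1G34030 changed by −1.91 in npf8.4-1 and −1.77 in Col-0 and AT1G22780 by −2.10 in npf8.4-1 and −1.89 in Col-0 on the log2 scale. The log2 ratio of AT1G22780 to AT4G09800 changed by −0.75 and that of AT4G09800 to AT1G34030 by 0.58 (exact permutation p = 0.005 and adjusted p = 0.00807 for each, 50 pairs). AT4G09800 overlaps the opposite-strand gene AT4G09810 over 25 bases, and AT4G09810 had at most 6.79 TPM as a group mean.

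In RPS15A, a protein of the body, AT1G07770 (RPS15A) led at day 2 and AT5G59850 at day 0. AT1G07770 had 108, 107 and 145 TPM in the npf8.4-1 day 2 libraries, against 351, 356 and 363 TPM in npf8.4-1 at day 0. In Col-0, AT1G07770 had 91.2, 139.9 and 125 TPM at day 2 and 301, 326 and 351 TPM at day 0. AT5G59850 had 76.7, 80.5 and 112 TPM in the npf8.4-1 day 2 libraries, against 396, 420.2 and 406 TPM in npf8.4-1 at day 0. In Col-0, AT5G59850 had 77.1, 103 and 90.7 TPM at day 2 and 318, 358 and 399 TPM at day 0. On the log2 scale AT1G07770 changed by −1.67 in npf8.4-1 and −1.51 in Col-0 and AT5G59850 by −2.28 in npf8.4-1 and −2.04 in Col-0. Their log2 ratio changed by −0.56 (exact permutation p = 0.005, adjusted p = 0.00807, 50 pairs). Here the exchange of the lead rests on the scaling by length, since in reads AT1G07770 was above AT5G59850 at both days, with a mean log2 ratio of AT5G59850 to AT1G07770 of −1.38 in npf8.4-1 and −1.35 in Col-0 at day 2, and −0.77 in npf8.4-1 and −0.83 in Col-0 at day 0. AT1G07770 also shares 6.36% of its 50-base words with AT1G07780.

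**Figure D4:**
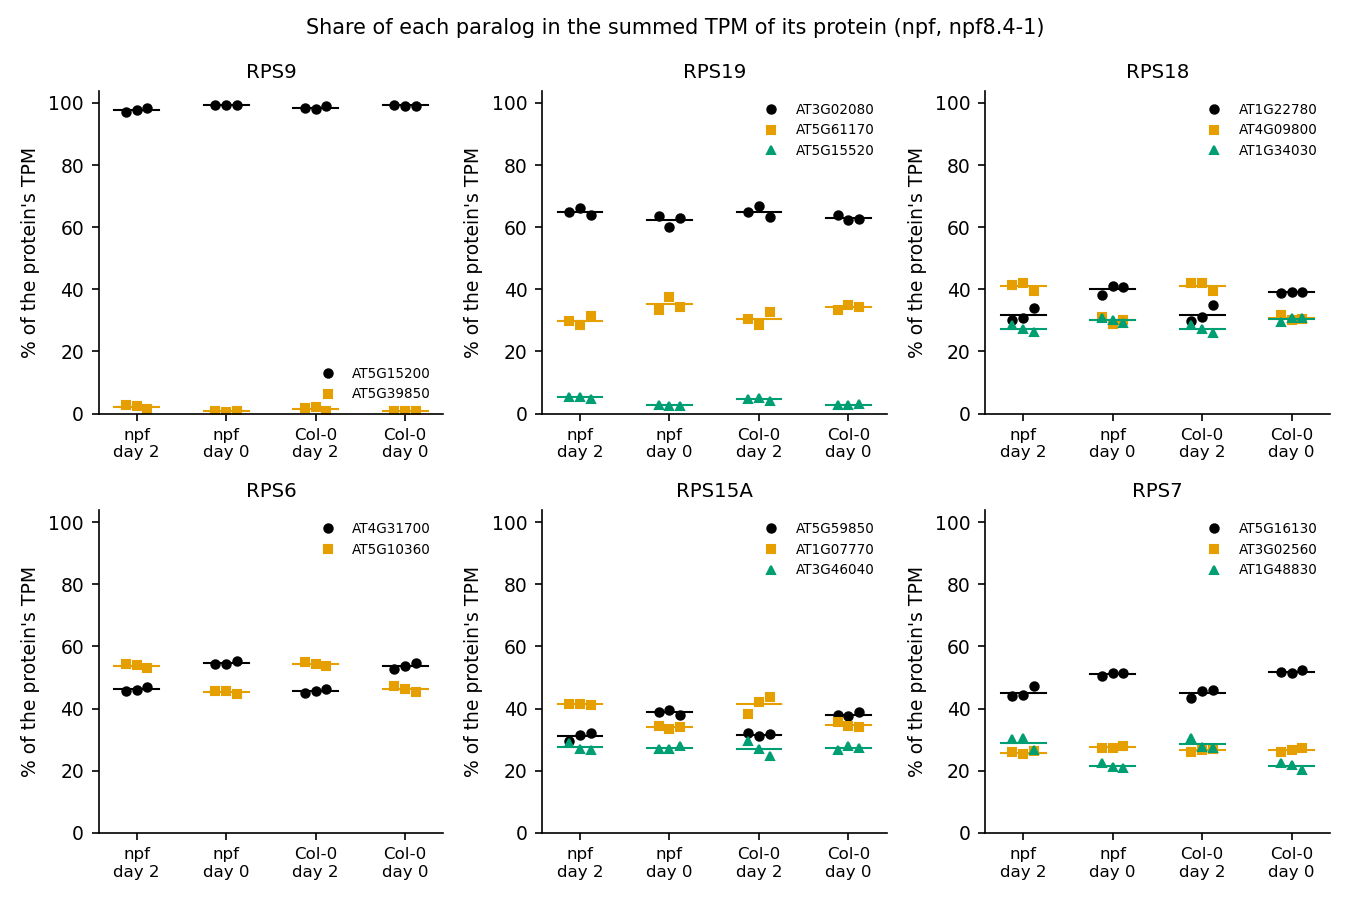
Share of each paralog in the summed TPM of its protein (y axis, percent) in each library, for 6 proteins, by group (x axis); points are libraries and short lines group means. The shares of RPS6, RPS18 and RPS15A exchange the lead between day 2 and day 0 in both genotypes, with AT4G31700 at 46.2% of RPS6 in npf8.4-1 at day 2 and 54.7% at day 0.

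How far reads of paralogs could be confused was read from their sequences. Coding sequences of the 50 pairs were 70.4% to 98.2% identical, with a median of 85.0%. Transcripts were compared in sense orientation only, which leaves out overlaps on opposite strands. In that comparison no 50-base word was shared with any other annotated transcript for 45 of the 60 genes. Over 10% of such words were shared for 5. Among those 5 are the RPS2 gene AT1G58380 (27.7%, with AT1G59359, which was not among the 60) and the RPS16 genes AT2G09990 (15.5%) and AT5G18380 (14.3%). Values of these 5 are uncertain to that extent. In all, 17 of the 60 overlap another annotated gene, 11 of them a gene on the opposite strand.

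Within 250 bases before the start, 37 of the 60 genes (61.7%) held TGGGCC or TGGGCT on either strand, compared with 19.2% of 27443 promoters of protein-coding genes. TGGGCC was found in 31 (51.7%, against 13.7%), TGGGCT in 22 (36.7%, against 12.3%) and the telo box AAACCCTA in 9 (15.0%, against 4.49%). A telo box and a site II motif occurred together in 6 (10%, against 1.36%), and 20 of the 60 held none of the 3 motifs. The 20 include AT5G39850, AT5G15520, AT4G09800 and AT3G10090, the 4 genes among the smallest falls in both genotypes, but also AT3G04770, which had the largest fall in Col-0; these genes were singled out after their values were seen. The medians of the classes lay close together. Genes with both kinds of motif had a median log2 fold change of −2.16 in npf8.4-1 and −1.95 in Col-0 (6 genes), those with site II alone −2.06 and −1.84 (31 genes), those with a telo box alone −2.02 and −1.76 (3 genes), and those with neither −2.06 and −1.76 (20 genes), the first value of each pair being npf8.4-1. Many of these windows overlap a neighbouring gene. Those of AT5G15520, AT3G04770 and AT5G59850 are among the windows that lie within one over their whole length.

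Between genotypes no member passed at either day. At day 2 none of the 60 was called lower in npf8.4-1 than in Col-0, where 0.953% of the genes tested were lower, and none higher, where 0.484% were (edgeR quasi-likelihood test). No member had groups that did not overlap, in the lower direction (6.76% of all genes) or the higher (9.3%). The median log2 fold change was −0.07, against 0.02 over all genes, and ran from −0.24 without npf8.4-1 replicate 3 to 0.03 without Col-0 replicate 3. It was −0.20 without Col-0 replicate 1, 0.01 without npf8.4-1 replicate 1 and 0.02 without npf8.4-1 replicate 2, so its sign depends on the libraries. At day 0 none was called either, where 0.118% of the genes tested were lower and 0.0309% higher. There the median was 0.14 against 0.00 over all genes. The log2 fold change was positive for 58 of the 60 genes and negative for 2, while it was negative for 49.8% of all genes tested. That median was 0.06 without npf8.4-1 replicate 2 and 0.22 without npf8.4-1 replicate 1, the range over the alternatives. All 3 npf8.4-1 libraries lay above all 3 Col-0 libraries for 9 of the 60, against 6% of all genes, and below them for 0 of the 60, against 7.52% of all genes. The 60 genes share the same libraries, so the common sign is not 60 separate observations. The unadjusted edgeR p was under 0.05 for 0 members at day 2, against 2462 of the 19416 genes tested. It was so for 0 members at day 0, against 1450 genes, and for 0 in the interaction, against 1759 genes. DESeq2 also called 0 members in each. The paralog ratios, averaged over both days, differed between genotypes in 0 of 50 pairs, with 2 at an unadjusted exact permutation p under 0.05 and a smallest adjusted p of 0.926. Whether the day change of a ratio differed between genotypes was not tested.

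The interaction, the day change of npf8.4-1 less the day change of Col-0, was called for 0 of the 60 and for 0% of all genes tested. Its median over the 60 was −0.21 against 0.02 over all genes, and 55 of 60 values were negative, against 46.9% of all genes tested. That median ranged from −0.40 to −0.12 over the alternatives. Leaving out 1 day 2 library gave −0.40 without npf8.4-1 replicate 3, −0.35 without Col-0 replicate 1, −0.14 without npf8.4-1 replicate 1, −0.13 without npf8.4-1 replicate 2 and −0.12 without Col-0 replicate 3. The smallest p was 0.0951 (edgeR adjusted p = 0.648), for AT5G39850 with a difference of 0.52 (SE 0.29). AT5G18380 and AT2G09990, the RPS16 genes, followed at −0.50 (SE 0.29, edgeR adjusted p = 0.678) and −0.38 (SE 0.23, edgeR adjusted p = 0.68). RPS16 is a head protein whose tail reaches the transfer RNA in the decoding site. AT5G18380 had 119, 139 and 165 TPM in the npf8.4-1 day 2 libraries, against 484, 705 and 639.6 TPM in npf8.4-1 at day 0. In Col-0, AT5G18380 had 146, 159 and 218 TPM at day 2 and 512, 569 and 591 TPM at day 0. AT2G09990 had 31.7, 38.1 and 41.7 TPM in the npf8.4-1 day 2 libraries, against 111, 148 and 129.6 TPM in npf8.4-1 at day 0. In Col-0, AT2G09990 had 42.3, 39.1 and 51.5 TPM at day 2 and 116, 126 and 127 TPM at day 0. In both genes the day 2 libraries of the genotypes overlapped.

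The same 3 genes had the smallest p at day 2, at 0.37 (SE 0.21, edgeR adjusted p = 0.522) for AT5G39850, −0.29 (SE 0.16, edgeR adjusted p = 0.529) for AT2G09990 and −0.35 (SE 0.21, edgeR adjusted p = 0.562) for AT5G18380, none of which passed. At day 0 the smallest p belonged to AT3G57490, an RPS2 gene, AT3G46040 (RPS15AD) and AT4G25740, an RPS10 gene. AT3G57490 had 6.61, 8.73 and 9.44 TPM in the npf8.4-1 day 2 libraries, against 28.5, 32.0 and 29.5 TPM in npf8.4-1 at day 0. In Col-0, AT3G57490 had 6.62, 8.42 and 10.2 TPM at day 2 and 20.9, 24.1 and 29.9 TPM at day 0. Its log2 fold change between genotypes at day 0 was 0.28 (SE 0.18, edgeR adjusted p = 0.874). AT3G46040 had 74.4, 69.6 and 93.8 TPM in the npf8.4-1 day 2 libraries, against 274, 288 and 299 TPM in npf8.4-1 at day 0. In Col-0, AT3G46040 had 70.9, 88.9 and 70.7 TPM at day 2 and 224, 267 and 279.6 TPM at day 0. AT4G25740 had 59.2, 72.4 and 82.8 TPM in the npf8.4-1 day 2 libraries, against 213, 243 and 226 TPM in npf8.4-1 at day 0. In Col-0, AT4G25740 had 70.3, 74.1 and 82.8 TPM at day 2 and 196, 201 and 210.0 TPM at day 0. The differences at day 0 were 0.18 (SE 0.12, edgeR adjusted p = 0.903) for AT3G46040 and 0.18 (SE 0.13, edgeR adjusted p = 0.923) for AT4G25740, so none passed the threshold. The 3 npf8.4-1 day 0 libraries of AT4G25740 lay above the 3 of Col-0, while those of AT3G57490 and AT3G46040 overlapped with Col-0.

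**Figure D5:**
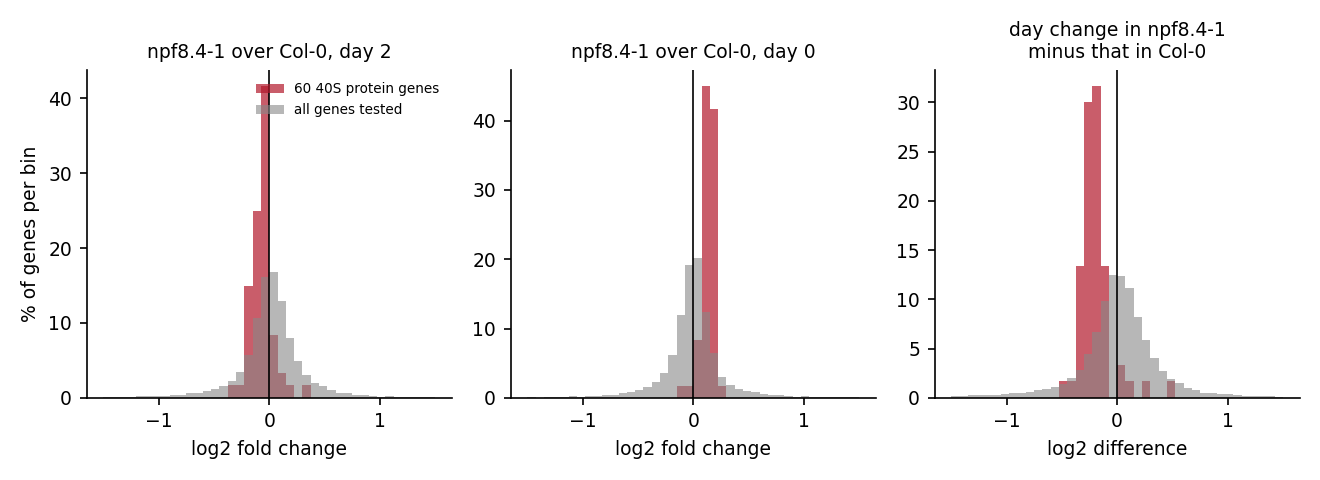
Distribution of the log2 fold change of npf8.4-1 over Col-0 at day 2 (left) and day 0 (middle), and of the difference of day changes (right), as percent of genes per bin (y axis); red shows the 60 genes and grey all genes tested, of which 181, 183 and 342 lie outside the plotted range. The red distributions are narrow, with medians of −0.07, 0.14 and −0.21.

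Most other listed genes of the translation apparatus were lower at day 2 as well, where 31.6% of all genes tested were lower and 32.5% higher in npf8.4-1, and 30.4% lower and 29.6% higher in Col-0. Of 34 other genes of 40S proteins and RACK1, 29 were tested; 29 were lower in npf8.4-1 and 28 in Col-0, with medians of −1.99 in npf8.4-1 and −1.70 in Col-0. RACK1B (AT1G48630), a scaffold protein on the 40S head, fell, with a log2 fold change of −2.66 in npf8.4-1 (SE 0.18) and −2.38 in Col-0 (SE 0.18). Genes annotated by name as proteins of the large subunit, a list that does not separate all organelle proteins, were lower in 77 and higher in 7 of 90 tested in npf8.4-1, and lower in 76 and higher in 6 of 90 in Col-0. Ribosome assembly factors were lower for 23 and higher for 1 of 24 tested in each genotype, with medians of −2.13 in npf8.4-1 and −2.12 in Col-0. FIB1 (AT5G52470), a fibrillarin that methylates ribosomal RNA, had a log2 fold change of −2.38 in npf8.4-1 (SE 0.14).

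Translation factors fell too, in 20 of 20 genes in each genotype, with smaller medians of −1.34 in npf8.4-1 and −1.19 in Col-0. EIF3E (AT3G57290), a subunit of the initiation factor that binds the 40S subunit, had −1.37 in npf8.4-1 (SE 0.08) and −1.27 in Col-0 (SE 0.08). Small-subunit proteins of the plastid ribosome, encoded in the nucleus, were lower for 13 of 13 genes in both genotypes, with medians of −0.98 in npf8.4-1 and −0.89 in Col-0. Genes of TOR and S6 kinase signalling showed no common direction, with 2 lower and 3 higher of 13 in npf8.4-1, and 3 lower and 5 higher of 13 in Col-0. In that list LARP1a (AT5G21160), an RNA-binding protein that acts on messages downstream of TOR, had a log2 fold change of −1.33 in npf8.4-1 (SE 0.09) and −1.55 in Col-0 (SE 0.09). LST8-1 (AT3G18140), a subunit of the TOR complex, rose by 0.71 in npf8.4-1 (SE 0.09) and 0.61 in Col-0 (SE 0.09).

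Markers of dividing cells fell alongside, in 19 of 19 genes in each genotype, with medians of −1.78 in npf8.4-1 and −1.52 in Col-0. Their summed level ranged over 166.3 to 288.4 TPM in npf8.4-1 at day 2 and 633.1 to 807.2 TPM at day 0, and over 179.1 to 252.8 TPM in Col-0 at day 2 and 523.6 to 750.3 TPM at day 0, with no marker at 0 in every library of a group. Their part in the fall of the 40S genes was not tested. Of 7 vascular markers, 6 were higher at day 2 in npf8.4-1 and 4 in Col-0, and none lower. They summed to 367.4 to 436.6 TPM in npf8.4-1 at day 2 and 131.1 to 177.9 TPM at day 0, and to 376.3 to 437.4 TPM in Col-0 at day 2 and 165.9 to 198.1 TPM at day 0. The median log2 fold change of the vascular markers was only 0.52 in npf8.4-1 and 0.29 in Col-0. Far above it were the sugar transporter genes SWEET12 (2.97 in npf8.4-1, 2.44 in Col-0), SUC2 (1.53 and 1.32) and SWEET11 (1.69 and 1.09). Stomatal markers moved both ways, with 2 lower and 2 higher of 7 in npf8.4-1, and 4 lower and 2 higher of 7 in Col-0. Their part was not tested either. The 6 meristem and flower markers summed to at most 1.91 TPM in any library.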

How the data were processed

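Young-leaf RNA was sequenced in 12 libraries from a stranded poly(A) kit, per the labels' protocols, 3 per group, with groups and replicate numbers taken from the titles. The authors deposited 1 table per library with the count of exon reads, the TPM and the RPKM of every gene; counts were tested, TPM gave levels, and the deposited RPKM was not used. The submitters' processing notes name bcl2fastq 2.17.1.14 and the build TAIR10. Aligner, counter, strand setting and handling of shared reads: not given in the sources used here.

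Counts of all 19416 genes passing filterByExpr were fitted in 1 model of 4 group means over 12 libraries (edgeR 4.0.16 quasi-likelihood test, R 4.3.3, TMM, robust), with Benjamini-Hochberg adjustment over all genes and a threshold of 0.05. The SE comes from the quasi-likelihood statistic. P-values measure the spread between pools of 15 plants. Library totals of 28761674 to 34282716 reads gave the members a median of 29 to 17523 reads per library. Paralog ratios used log2 of reads plus 0.5 and an exact permutation test (400 arrangements). Replicates did not duplicate each other, and fit and pair test were tested on simulated data. Alternatives were DESeq2 1.42.0 size factors and test, other filters and scaling, fewer libraries and a replicate block. Coordinates and promoters are from TAIR10.1, matched by locus name for 36810 of 37242 genes, 36806 with the same start and end. Motif windows end at the base before the annotated start. The naming rule took the 5 highest genes, the 5 largest and 5 smallest falls in Col-0, the 8 pairs of largest ratio change past the threshold, and the 3 smallest p of each genotype comparison; up to 4 genes per other list with the smallest p are candidates for naming. Values per library are given for the genes it took, save those not reported. The members, lists and rule were chosen with earlier results of these data known. Pairs are of the 60 members only, and 0 columns of other samples were present. Some members, among them genes the rule took, are counted among the 60 but not reported here one by one.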

Additional observations from a re-analysis of the deposited data

How the results depend on the processing

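Counts of called members hardly changed over the alternatives run. As single libraries were left out, 59 to 60 members were lower in npf8.4-1 and 60 in Col-0 at day 2. Their medians then were −2.26 to −1.98 in npf8.4-1 and −1.94 to −1.70 in Col-0. Both genotype comparisons and the interaction stayed at 0 called members. The members that lost a call numbered 1, AT5G39850 in npf8.4-1, in the settings named beside its result. Medians ran from −0.24 to 0.03 for npf8.4-1 against Col-0 at day 2, from 0.06 to 0.22 at day 0 and from −0.40 to −0.12 for the interaction. Paralog pairs differing between days numbered 37 to 43 as single libraries were left out, 40 with 1 read added or with no strata, and 39 with no filter. Scaling by library totals alone moved the median of all genes to 0.10 in npf8.4-1 and 0.07 in Col-0. Deviations from the group means correlated at 0.06 to 0.42 between same-numbered libraries for replicates 1 and 3, and at −0.17 to 0.02 for replicate 2. Between replicates 1 and 3 of different groups they correlated at −0.44 to −0.08. Libraries numbered 1 or 3 thus tended to share some deviation with same-numbered libraries, for which the main fit has no term. Those numbered 2 did not. Pairs of different number also reached 0.31, for npf8.4-1 day 0 replicate 1 with npf8.4-1 day 2 replicate 2. Deviations cancel within each group, so these correlations are not independent of each other. With the replicate block, 60 members were lower in npf8.4-1 and 60 in Col-0, 0 differed between genotypes or in the interaction, and 35 pairs differed between days. Without the 3 highest genes, the summed level was 5846 TPM in npf8.4-1 at day 2 and 22528 TPM at day 0, and 6024 TPM in Col-0 at day 2 and 20605 TPM at day 0. A fit of only the groups compared was not run for the interaction, which uses all 4 groups. Depth limits some members, as 8 of the 60 had a median under 1000 reads per library, the lowest being 29. Among these 8 is AT5G39850, with 40 to 139 reads per library.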
